A study of Bos taurus with 2 samples.

Results

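The circadian clock genes of the muzzle were compared between 1 light-muzzle and 1 dark-muzzle HanWoo cow. Of 10 core clock genes looked for (ARNTL, CLOCK, PER1, PER2, PER3, CRY1, CRY2, NR1D1, NR1D2 and DBP), 4 were matched to probes of the array, namely CLOCK, CRY1, NR1D1 and DBP. They were represented by 7 of 43639 noncontrol probes, chosen because the RefSeq accession that the probe carries is paired with the gene's symbol in RefSeq's gene table for the cattle assembly ARS-UCD2.0. ARNTL (also written BMAL1), CRY2, NR1D2 and the PER genes matched no probe by this rule and were not analysed here. Accessions of 20587 probes (47.2%) had a symbol in that table.

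Both animals were female HanWoo, a native Korean breed, aged 30 months. The label of the light-muzzle cow gives its nose tissue as Yellow and that of the dark-muzzle cow as Black. Cows of the study were raised at the same farm, and the front part of the muzzle was removed at a slaughterhouse and frozen. Each group was a single cow sampled once, and the time of day at which the tissue was taken is not given in the sources used here, so each level is that of one unstated moment of the daily cycle. Each RNA was read alone in 1 colour on its own array, and both arrays lay on the same slide.

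The circadian clock is a feedback loop of transcription that runs with a period of about a day in most cells of the body. CLOCK and ARNTL form a heterodimer that binds E-box elements and activates, among others, the PER and CRY genes, whose proteins then repress that heterodimer. A further loop runs through the nuclear receptor NR1D1 (REV-ERB alpha), which represses ARNTL and is itself an E-box target. DBP is a transcription factor of the PAR bZIP family, which carries the rhythm to output genes through D-box elements. In skin, clock genes are expressed in the epidermis, the hair follicle and the dermis.

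Levels are given as the processed signal of a spot, an intensity without unit after background subtraction. Each clock gene probe was printed once per array, no spot of these probes was saturated or marked as an outlier, and the error given with an intensity is the one that the scanner software estimated for that spot. That error came to at most 10.2% of the signal for the 6 brighter probes. It covers the measurement of a spot and not the difference between animals, for which there was no replicate. Log2 ratios are dark-muzzle over light-muzzle, after the 75th percentile of each array was subtracted on the log2 scale (an intensity of 1144 and 1137), and their errors combine those of both spots. Where other probes were printed more than once, the median SD of the ratio between spots was 0.049 (43 probes). That is smaller than the errors given here, and it too leaves out the difference between animals.

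No measured ratio of the 4 clock genes reached 2-fold between the cows. A dim NR1D1 probe, flagged as above background in the dark-muzzle cow alone, read 1.94-fold higher in that cow. Its value is called a lower bound here, but it is the plain ratio of 2 readings. Smaller differences lie within its error (a log2 ratio of 0.18 to 1.74 at 2 errors to either side). CLOCK, CRY1 and the measured NR1D1 probe lay close to equal levels in both muzzles, and DBP was lower in the dark-muzzle cow by 1.31-fold over its 2 probes. Of the 7 probes, by ratio or bound, 0 passed 2-fold toward the dark muzzle and 0 toward the light one. For the dim NR1D1 probe the interval of 2 errors held 2-fold, so its place on either side of that threshold is undetermined. Among all 36630 probes with a ratio or a lower bound, 9.76% were at least 2-fold higher and 7.17% at least 2-fold lower.

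**Figure D1:**
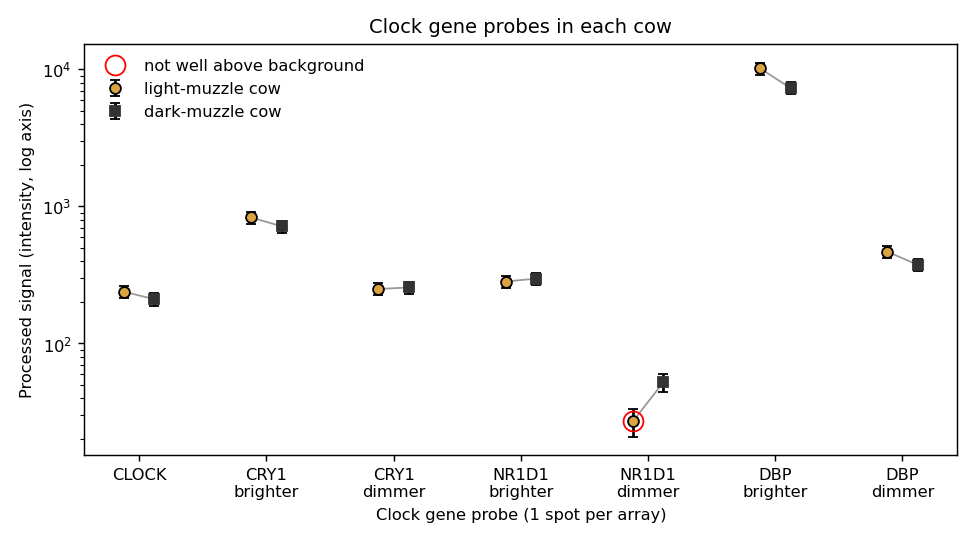
Processed signal (intensity, log axis) of the 7 clock gene probes in the light-muzzle cow (yellow circles) and the dark-muzzle cow (dark squares), with bars for the spot error of the scanner software, the grey lines joining the same probe, and a red ring for a spot not well above background. Both DBP probes are lower in the dark-muzzle cow, and the dimmer NR1D1 probe, ringed at 26.95 in the light-muzzle cow, reads 52.04 in the dark-muzzle cow.

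CLOCK, the activator that binds DNA together with ARNTL, was read by 1 probe (A_73_105625, accession XM_002688257). Its intensity was 238.5 ± 24.2 (spot error) in the light muzzle and 210.3 ± 21.5 in the dark muzzle. The log2 ratio was -0.17, so that the dark muzzle read 1.13-fold lower. This is less than its error of 0.21, so a difference in CLOCK was not detectable by that error. Of all 33451 probes well above background in both cows, 74.3% had a log2 ratio larger in size.

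CRY1, a cryptochrome that represses the activating heterodimer, was read by 2 probes of the same transcript (NM_001105415). Probe A_73_120289 read 830.4 ± 83.1 in the light muzzle and 716.2 ± 71.7 in the dark muzzle, a log2 ratio of -0.20 with an error of 0.20. Probe A_73_P091086 read 249.5 ± 25.5 in the light muzzle and 256.5 ± 26.2 in the dark muzzle, a log2 ratio of 0.049 with an error of 0.21. The probes thus had opposite signs, the first ratio about equalled its error and the second was smaller than its own. Their SD was 0.18, close to the median SD of 0.18 between probes of the same transcript over 7661 transcripts of the array. The mean of the 2 ratios was -0.078, with an error of 0.15.

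NR1D1, the nuclear receptor of the second loop, was also read by 2 probes of 1 transcript (NM_001078100). Probe A_73_P043426 was well above background in both cows, with intensities of 283.0 ± 28.6 and 297.2 ± 30.0 in the light-muzzle and the dark-muzzle cow. Its log2 ratio was 0.079 with an error of 0.21, and 87.8% of all probes measured in both cows had a ratio larger in size. Probe A_73_P254401 was dim, at 26.95 ± 6.04 in the light-muzzle cow, where it was not well above background, and at 52.04 ± 7.78 in the dark-muzzle cow. The dark muzzle read 1.94-fold higher, a log2 ratio of 0.96 with an error of 0.39 (0.18 to 1.74 at 2 errors to either side). The shifted log2 level of this probe in the light-muzzle cow, -5.41, was above the detection limit of -5.78 (the lowest level flagged as well above background there). The lower bound used for it is therefore the plain ratio of its 2 readings, and smaller differences lie within its error. Before background subtraction, the median pixel of this spot read 66 against a local background of 20 on the light-muzzle array and 89 against 21 on the other. The size of this bound depended on the processing. It was 0.73 with loess normalization, 0.71 with quantile normalization and 0.31 with normexp, another method of background correction, where the brighter DBP probe at -0.41 was larger in size.

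DBP, the output factor, was read by 2 probes of 1 transcript (NM_001037445), and both were lower in the dark-muzzle cow. Probe A_73_112730 read 10176 ± 1018 in the light muzzle and 7314 ± 731 in the dark muzzle. Its log2 ratio of -0.47, or 1.38-fold lower, had an error of 0.20, and 2 errors to either side ran from -0.88 to -0.060. Probe A_73_P040556 read 467.9 ± 47.0 in the light muzzle and 374.5 ± 37.8 in the dark muzzle. Its log2 ratio of -0.31, or 1.24-fold lower, had an error of 0.21, and the interval of 2 errors, -0.72 to 0.098, held 0. The 2 probes differed from each other by 0.16, with an SD of 0.11, and 31.8% of the 7661 transcripts had a smaller SD between their probes. The mean ratio was -0.39 with an error of 0.14. Nevertheless, 40.8% of all probes measured in both cows had a ratio larger in size than the more changed DBP probe.

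**Figure D2:**
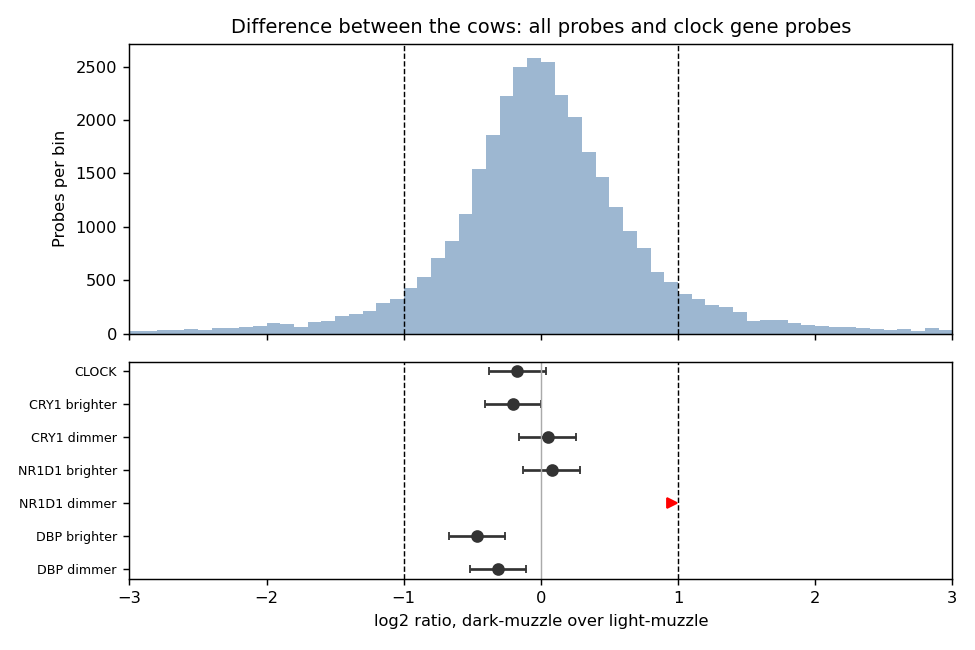
Upper panel, log2 ratio (dark-muzzle over light-muzzle) of all probes well above background in both cows, in bins of 0.1, with 559 probes beyond 3 in either direction outside the axis and dashed lines at 2-fold. Lower panel, the same ratio for each clock gene probe with bars for the error from the scanner software, and a red arrowhead for the lower bound of the dimmer NR1D1 probe. The measured ratios and the bound itself lie inside the dashed lines.

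The 6 clock gene probes well above background in both cows were spread about the centre of the array. Of these, 4 had a ratio below 0 and 2 above it, and their median log2 ratio was -0.19, against 0.0038 for all 33451 such probes, of which 49.7% were below 0. The median size of the ratio, sign left out, was 0.19 for the clock gene probes and 0.37 for all. The quartiles of the ratio over all such probes were -0.35 and 0.40, and 5 of the 6 clock gene probes lay between them, the exception being the DBP probe at -0.47. At 1.5-fold, 1 of the 7 probes was higher, the dim NR1D1 probe, and 0 were lower, against 19.7% and 15.1% of all probes with a ratio or a bound. The interval of 2 errors of that NR1D1 probe, 0.18 to 1.74 on the log2 scale, held 1.5-fold as well.

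The clock genes were also set against each other, since a difference between 2 genes within the arrays does not move with a shift of a whole array. DBP and NR1D1, both E-box targets, were furthest apart. The DBP ratio was lower than that of the measured NR1D1 probe by 0.47 on the log2 scale (a difference of -0.47 with an error of 0.25, and -0.97 to 0.035 at 2 errors to either side). DBP stood below CRY1 by a difference of 0.31 (error 0.21) and below CLOCK by 0.22 (error 0.25). The remaining pairs, CLOCK with CRY1, CLOCK with NR1D1 and CRY1 with NR1D1, had differences (first gene minus second) of -0.095, -0.25 and -0.16, each less than its error. For all 6 pairs the interval of 2 errors held 0, so that unequal ratios of these genes were not detectable by the error of the scanner software. That error, nearly the same share of the signal for each of these probes, is larger than the median SD between repeated spots (0.049). No interval from repeated spots could be made for these probes, each printed once.

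**Figure D3:**
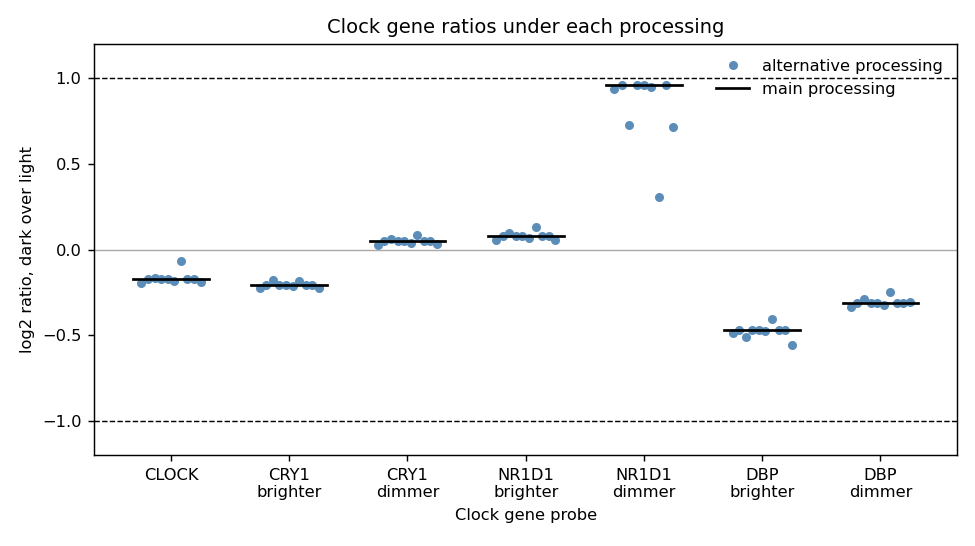
Log2 ratio (dark-muzzle over light-muzzle) of each clock gene probe with the main processing (black line) and with each alternative (blue points, 10 per probe and 9 for the dimmer NR1D1 probe), with dashed lines at 2-fold. Each probe keeps its sign in all of them, and the widest range, 0.31 to 0.96, is that of the dimmer NR1D1 probe.

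The sign of the ratio was the same under all alternatives for each of the 7 probes. The ratio of CLOCK ranged from -0.19 to -0.066. The CRY1 probes ranged from -0.23 to -0.18 and from 0.028 to 0.088. The DBP probes stayed between -0.56 and -0.41 and between -0.33 and -0.25, so that DBP was lower in the dark-muzzle cow with either probe throughout. The measured NR1D1 probe stayed between 0.056 and 0.13. No alternative scaled the arrays by the spike-in controls, whose median log2 ratio was -0.22. The ratios of CLOCK (-0.17) and of CRY1 probe A_73_120289 (-0.20) are smaller in size than that median. On a scale that sets it to 0, both would lie above 0. The DBP ratios (-0.47 and -0.31) are larger in size and would stay below 0.

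Around the core loop, ratios are given for 5 clock partners with a probe measured in both cows. NPAS2, a paralogue of CLOCK, had a measured probe at -0.33, whereas its other probe, above background in the dark muzzle alone, gave a lower bound of 1.16. CIPC, an inhibitor of the CLOCK heterodimer, had a mean ratio of -0.34. The repressors BHLHE40 and BHLHE41, which bind E-boxes, had mean ratios of 0.10 and 0.24, and TIPIN, the partner of TIMELESS, had probes at 0.69, 0.23 and -0.34, which differed in sign. Over all 8508 genes measured by symbol, 9.12% were at least 2-fold higher and 6.10% at least 2-fold lower, and the median log2 ratio was 0.055, against -0.13 for the 4 clock genes.

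Of the kinases, phosphatases and ubiquitin enzymes that set the stability of clock proteins, 17 of 20 were measured, with a median log2 ratio of 0.16. USP2, a deubiquitinase, read 2.31-fold higher in the dark muzzle from 1 probe, and 0 genes were 2-fold lower. With normexp its log2 ratio of 1.21 became 0.87, under 2-fold. The next in size were PPP1CA (0.60), a catalytic subunit of protein phosphatase 1, FBXL21 (-0.57), an F-box protein that binds cryptochromes, and CSNK2A1 (0.54), a catalytic subunit of casein kinase 2. Among 7 measured clock cofactors of 15, 0 passed 2-fold, and the largest ratios in size were those of the coactivator PPARGC1A (-0.83), the nuclear receptor PPARA (0.59), the RNA-binding protein RBM4 (-0.38) and the acetyltransferase CREBBP (-0.22). PPARA was dim, at intensities of 33.1 and 49.5, and its ratio fell to 0.37 with loess or quantile normalization and to 0.24 with normexp, while the 4 CREBBP probes ran from -0.51 to 0.39. In a list of D-box factors and clock output genes, 11 of 15 were measured, with a median of 0.33. It includes USP2, again, NFIL3 (0.68), which represses at the D-boxes where DBP activates, CDKN1A (0.66) and LGALS4 (-1.26), the 1 gene of the list at least 2-fold lower.

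**Figure D4:**
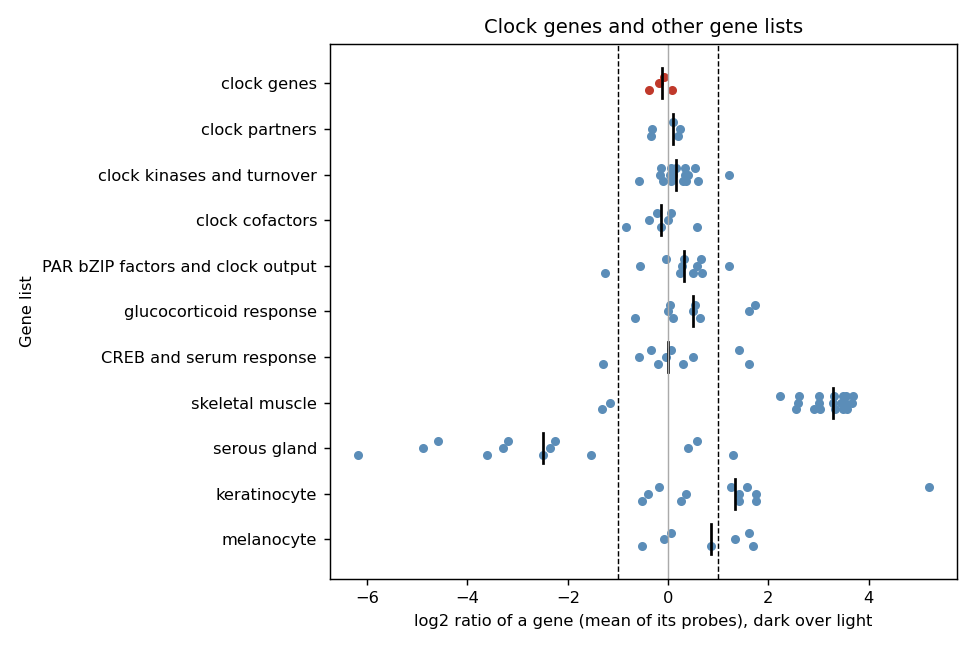
Log2 ratio (dark-muzzle over light-muzzle) of single genes, each the mean of its probes measured in both cows, for the 4 clock genes (red) and 10 other lists (blue), with a black bar at the median of a list and dashed lines at 2-fold. The clock genes lie between -0.39 and 0.079, while skeletal muscle genes have a median of 3.28 and serous gland genes one of -2.50.

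The pieces of muzzle differed in their cell type markers, and in such bulk tissue fewer cells of a type and less RNA per cell cannot be told apart. Of 21 measured skeletal muscle genes, 19 passed 2-fold toward the dark muzzle, with a summed intensity of 245452 in the light muzzle and 1768374 in the dark one. The other 2, CA3 and PVALB, were 2.50-fold and 2.22-fold lower there. Of 13 measured serous gland genes, 10 were at least 2-fold lower, and the summed intensity went from 349352 to 28503. The remaining 3 lay above 0, namely BPIFA1, which was dim and 2.44-fold higher, LPO (log2 ratio 0.57) and LYZ (0.40). The 12 keratinocyte genes with a probe were above background in both cows, as were 7 of 9 melanocyte genes, and 7 and 3 of them passed 2-fold toward the dark muzzle. The melanocyte genes TYRP1 and EDNRB had only bounds, the largest of each being 3.28 and 1.31 on the log2 scale, while DCT (-0.52) and KIT (-0.072) lay below 0. Of 9 measured fibroblast genes, 5 were at least 1.5-fold lower and 0 higher (median -0.65), and of 9 endothelial genes 5 were at least 1.5-fold higher and 0 lower (median 0.75). The medians of the leukocyte list and of the list of adipocyte and sebaceous genes were -0.15 and 0.30. The part of these markers in the DBP and NR1D1 values was not tested. The spike-in control transcripts above background on both arrays, 8 of 10, had log2 ratios between -0.38 and 0.021, with a median of -0.22. That median is close to the -0.19 of the clock gene probes, whereas the median of all probes measured in both cows was 0.0038. Over the 4 clock genes, however, the median was -0.13. The DBP mean of -0.39 lies just beyond the lowest spike-in ratio, with its probes at -0.47 and -0.31. CLOCK (-0.17) and CRY1 probe A_73_120289 (-0.20) lie within the spike-in range. Above its highest value lie CRY1 probe A_73_P091086 (0.049) and the measured NR1D1 probe (0.079). Whether the clock gene ratios share the offset of the spike-in controls was not tested.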

How the data were processed

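Muzzle RNA of 1 HanWoo cow of each muzzle colour was labelled with Cy3 and read on an Agilent bovine array of its own. The authors deposited the scanner output of Feature Extraction 10.7.3.1, whose processed signal is the background-subtracted, detrended intensity of a spot, given with an intensity error by the error model of that software. The authors also deposited a log2 value for each probe, normalized in GeneSpring. It lay within 0.01 of the value computed here for 43628 of 43639 probes and served as an alternative.

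Processed signals were converted to log2 and shifted by each array's 75th percentile over noncontrol spots, without control and outlier spots, and repeated spots were averaged per probe. A log2 ratio is dark minus light. Where a probe was well above background in 1 cow only, its bright level was set against the higher of 2 values on the other array. These were its own dim level and the detection limit (the lowest level flagged as well above background there). The result is called a lower bound. Where the dim level was the higher, the bound equals the ratio of the 2 readings and carries their error. Probes above background in neither cow got no ratio. Names came from probe accessions through RefSeq's gene table for ARS-UCD2.0, of which no coordinate was used. Since each group was 1 array, no test was possible and no p-value was computed, and the precision is limited by the number of arrays.

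The text gives every clock gene probe, 5 measured clock partners, and the 4 genes of each other pathway list with the largest ratio in size. Cell type lists are described by counts. Of the clock partners, 1 gene is not reported here and was left out of the list, so no count past a threshold and no median is given for it. The clock genes and lists were chosen with earlier results of these data known. Alternatives were quantile and loess normalization (span 0.3), normexp background correction (offset 50, on the median pixel signal), a shift by the 50th percentile or none, other treatments of dim probes and outlier spots, the deposited log2 values, thresholds of 1.5-fold and 3-fold, and genes in place of probes. The same alternatives for the other gene lists were added after seeing the data. Computation used Python 3.11.15, numpy 2.4.6, pandas 2.3.3, and limma 3.58.1 in R 4.3.3, and the ratio step was tested on simulated data. Promoter and protein sequences were not analysed here.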

Additional observations from a re-analysis of the deposited data

How the results depend on the processing

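Of 69 ratios of clock gene probes recomputed under the alternatives, 66 moved by less than 0.18 on the log2 scale, the median SD between probes of a transcript. Many of the 66 could not move. The treatments of dim probes and outlier spots leave the 6 brighter probes as they are, and the deposited values nearly equal those computed here. The other 3 belonged to the dim NR1D1 probe, whose lower bound of 0.96 became 0.73 with loess normalization, 0.71 with quantile normalization and 0.31 with normexp background correction. No alternative gave a clock gene probe at least 2-fold higher or lower, and at 1.5-fold 1 probe was higher. Over all probes, those at least 2-fold higher numbered 3575 as reported, 2132 with normexp, 6018 with dim probes unfiltered and 879 as genes in place of probes, and 7226 or 1620 at 1.5-fold or 3-fold. Those at least 2-fold lower numbered 2626 as reported, 1563 with normexp and 577 as genes, and 5542 or 1169 at those thresholds. Counts of genes have a smaller total than counts of probes, so the 2 cannot be set side by side. Of 8508 genes measured in both cows, 9.12% were at least 2-fold higher and 6.10% lower, against 9.76% and 7.17% of 36630 probes. The mean ratio of NPAS2 turned from -0.33 to 0.82 without a filter on dim probes and to 0.42 with levels raised to the detection limit, as its dim probe was then averaged in. With normexp USP2 had a ratio of 0.87, and 0 genes of the clock kinases and of the clock output list were 2-fold higher. No paired analysis was possible because each group was 1 cow. The precision is limited by 1 spot per probe and 1 array per group, and probes near background, such as the dim ones of NR1D1 and NPAS2, give only a bound.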

Other observations

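Genes of signals that act on PER1 and other clock genes from outside the cell were also measured. Of 11 genes of the glucocorticoid response, 9 were measured in both cows. Their median log2 ratio (dark-muzzle over light-muzzle) was 0.50, against 0.055 over all genes measured by symbol. ZBTB16, a zinc finger transcription factor, read 3.31-fold higher in the dark muzzle from 1 probe, and PDK4, a kinase that restrains pyruvate dehydrogenase, was 3.04-fold higher, with its 8 probes between 1.31 and 2.08 on the log2 scale. NFKBIA, an inhibitor of NF-kappa-B, had a ratio of 0.64. In contrast, the kinase SGK1 had one of -0.65. The part of the cell type markers in these values, and in those below, was not tested.

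A list of 16 names on CREB and serum response holds CREB1 itself and its coactivator CRTC2 besides responding genes. Of these names, 10 were measured, with a median log2 ratio of 0.0012. That median lay between CREB1 (-0.046) and CRTC2 (0.049), so it does not describe the responding genes alone. FOS read 3.05-fold higher in the dark muzzle, with probes at 1.41 and 1.81, and CREM, a relative of CREB, was 2.65-fold higher. NR4A2 was 2.48-fold lower, with its probes spread from -1.85 to -0.31, where the probe at -0.31 was dim in both cows. EGR1 had a ratio of -0.59 from 1 measured probe. Its other probe, above background in the light muzzle alone, gave a bound of -0.23. The named genes of this list thus differed in direction among themselves.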
